A study of Mus musculus with 8 samples.

Results

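The 10 genes described here encode the enzymes that hydroxylate collagen chains in the endoplasmic reticulum and the chaperone that holds the folded triple helix. They were taken by gene symbol, by a rule that names no measured value though it was written with earlier results of these data known, as P4ha1, P4ha2, P4ha3, P4hb, Plod1, Plod2, Plod3, P3h1, Crtap and Serpinh1. All 10 were found among the 53465 genes of the count table, and all 10 were among the 14369 genes that had enough reads to be tested. Levels were measured by RNA-seq in mesenchymal stem cells (MSCs), stromal cells able to form bone, fat and cartilage, taken from C57BL/6N mice aged 3 to 5 months. The labels call the cells bone-marrow MSCs, and the study grew them out of digested limb bones. The compared conditions were culture at 2% O2 (hypoxia) and, after sorting, a week at 21% O2 (normoxia), in each case with 5% CO2 at 37 °C. The labels place the sort on day 12. No genotype or drug differed between the groups, and no freshly isolated cells were part of the comparison. Each group had 4 samples, numbered 1 to 4 in both groups. Per the study the sorted cells lacked the blood markers CD45 and Ter-119 and carried Sca-1 and CD140a.

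Newly made collagen chains are modified before they fold. Prolyl 4-hydroxylase, an assembly of catalytic α subunits (P4ha1, P4ha2, P4ha3) with the β subunit P4hb, makes the 4-hydroxyproline on which the thermal stability of the triple helix depends. The lysyl hydroxylases encoded by Plod1, Plod2 and Plod3 prepare lysines for sugar attachment and for the cross-links that later join collagen molecules in bone and cartilage. The enzyme P3h1 and its partner Crtap 3-hydroxylate a few prolines, and Serpinh1, also called Hsp47, binds the finished helix until it leaves the endoplasmic reticulum. The hydroxylases belong to a family that needs molecular oxygen, 2-oxoglutarate, iron and ascorbate. P4ha1, P4ha2 and Plod2 are known in other cells as genes that hypoxia-inducible factor (HIF) can raise when oxygen is low.

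HIF binds DNA at a 5-letter core, so the sequence just before the transcription start is shown for some of the genes. They are P4ha1, the most counted α subunit, and Plod1, P3h1 and Crtap, whose RNA levels passed the test below. A window of 250 bases upstream of the RefSeq start (GRCm38.p6) was found for 9 of the 10 genes, Plod2 being the exception. The cores ACGTG and GCGTG were searched on both strands, and capitals mark each match, so that CACGT and CACGC are matches on the opposite strand and a CACGTG would count on each strand. The windows lie at chr10:59323046-59323295 on the plus strand for P4ha1, at chr4:147936777-147937026 on the minus strand for Plod1, at chr4:119232665-119232914 on the plus strand for P3h1 and at chr9:114390713-114390962 on the minus strand for Crtap. Each is written 5′ to 3′ in the direction of its gene.
P4ha1: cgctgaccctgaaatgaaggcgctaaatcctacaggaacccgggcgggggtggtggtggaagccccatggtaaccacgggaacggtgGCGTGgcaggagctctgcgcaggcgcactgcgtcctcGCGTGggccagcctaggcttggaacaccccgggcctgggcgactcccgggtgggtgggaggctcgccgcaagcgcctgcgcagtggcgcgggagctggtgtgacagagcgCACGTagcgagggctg
Plod1: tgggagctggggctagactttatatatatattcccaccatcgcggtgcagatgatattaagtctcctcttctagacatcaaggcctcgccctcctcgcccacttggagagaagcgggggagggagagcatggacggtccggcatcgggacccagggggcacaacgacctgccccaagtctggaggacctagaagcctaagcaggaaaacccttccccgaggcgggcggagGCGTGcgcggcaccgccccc
P3h1: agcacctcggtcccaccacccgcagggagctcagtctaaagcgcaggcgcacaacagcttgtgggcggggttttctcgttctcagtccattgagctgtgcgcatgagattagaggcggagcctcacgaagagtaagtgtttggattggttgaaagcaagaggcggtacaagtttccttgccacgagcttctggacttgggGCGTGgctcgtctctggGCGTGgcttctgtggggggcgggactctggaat
Crtap: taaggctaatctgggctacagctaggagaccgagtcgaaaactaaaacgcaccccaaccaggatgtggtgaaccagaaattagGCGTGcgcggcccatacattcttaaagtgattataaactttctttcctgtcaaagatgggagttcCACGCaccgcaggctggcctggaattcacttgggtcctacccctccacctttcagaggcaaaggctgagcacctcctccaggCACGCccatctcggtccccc
P4ha1 held 3 matches, whose first letters lay 163, 126 and 16 bases before the start. Plod1 held 1 match at 20 bases, P3h1 held 2 at 50 and 33 bases and 2 more in the window of a second RefSeq start (chr4:119233579-119233828) at 31 and 19 bases, and Crtap held 3 at 167, 102 and 20 bases. The RefSeq starts of Plod1 and Crtap do not fall on a GENCODE transcript start. Among the others, Plod3 had 4 matches, P4ha2 had 3, P4hb had 2, Serpinh1 had 1 and P4ha3 had 0. At least 1 match was present for 8 of the 9 genes with a window, or in 9 of their 10 windows. Over all 32851 windows of this length, 38.6% held at least 1 match, 16.7% held 2 or more and 6.58% held 3 or more. Those windows were not matched to the ones here in base composition or RNA level, so these shares are no test of enrichment. A match is a run of letters in the window and no measure of binding.

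The libraries held between 12898291 and 25132141 counts, the deepest being hypoxia sample 1 and the other 7 lying between 12898291 and 13433824. No member had fewer than 1572 reads in any sample. Across all tested genes, limma-trend called 4970 (34.6%), of which 47.8% were lower at 21% oxygen, a share of 30.4% of 5186 calls when libraries were scaled by their totals alone. The α1 chain of type I collagen, Col1a1, made up 4.80% to 5.65% of each hypoxia library and 3.14% to 3.39% of each normoxia library. Log2 changes also moved with base composition, with Spearman's rho between transcript GC content and log2 change of -0.39 across 14353 genes, which share their libraries and are not independent. The 8 MSC markers listed summed to 2673 to 3125 library-scaled counts (CPM) in hypoxia and 3090 to 3576 CPM in normoxia. Of these genes 3 rose (Cd44, Nt5e and Itgb1) and 1 (Eng) fell, or 4 and 4 with the replicate block. Itgb1 alone made up 974 to 1163 CPM and 1386 to 1551 CPM of these sums. Nt5e lay at 10.2 to 11.2 CPM and 12.5 to 17.6 CPM. Without the block, Ly6a (log2 change -0.14, adjusted p = 0.26) and Pdgfra (0.24, adjusted p = 0.075) were not called.

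Of the 10 genes, 4 passed the test and 2 of these went in each direction. At 21% oxygen, RNA for the lysyl hydroxylase Plod2 was higher and RNA for its paralog Plod1 was lower. The partners of the prolyl 3-hydroxylase complex also parted, P3h1 being higher and Crtap lower. The 3 α subunits of prolyl 4-hydroxylase, P4hb, Plod3 and Serpinh1 did not pass. The share called, 4 of 10, stood beside 34.6% of all tested genes, with 16.5% of all genes called lower and 18.0% called higher. With the replicate number as a block, 7 of the 10 passed (4 lower and 3 higher), against 46.0% of all genes, and without normoxia sample 3 only Plod1 and Plod2 remained. Groups that did not overlap were seen for 5 of the 10 genes (Plod1, Plod2, Plod3, P3h1 and Crtap), beside 32.6% of all tested genes. The levels are bulk measurements, in which fewer cells of a type and less RNA per cell cannot be told apart, and p-values measure the spread between these 4 samples per group.

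**Figure D1:**
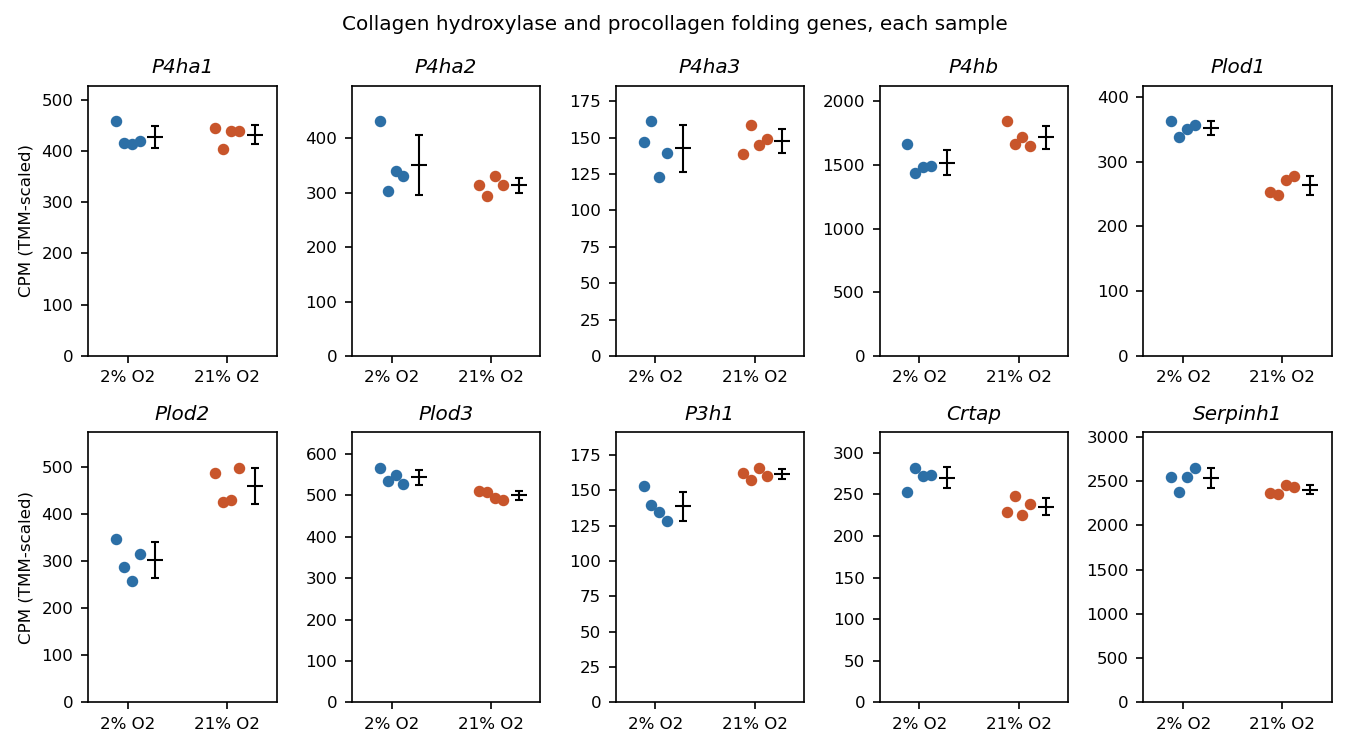
Level of each of the 10 genes in every sample, as CPM scaled by TMM factors on axes that start at 0. Points are samples 1 to 4 from left to right at 2% (blue) and 21% oxygen (orange), and the cross bars are the mean ± SD. Plod2 and Plod1 show the largest changes relative to their level, from 302 to 460 CPM and from 352 to 263 CPM on average, while the P4ha1 points overlap.

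The α subunits of prolyl 4-hydroxylase stayed close to their hypoxic levels. P4ha1 (chr10:59323296-59373304, plus strand) was measured at 458, 416, 414 and 420 CPM in hypoxia samples 1 to 4 and at 444, 404, 439 and 438 CPM in normoxia samples 1 to 4. The groups overlapped almost entirely, with a log2 change (normoxia minus hypoxia) of 0.014 ± 0.058 (SE) and a 95% confidence interval from -0.11 to 0.14 (limma-trend, adjusted p = 0.88). The estimate moved to -0.12 when log2 CPM was corrected for GC content and length, where it passed with the replicate block (adjusted p = 0.016) and missed without it (adjusted p = 0.10).

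P4ha2 (chr11:54100095-54131665, plus strand), the α subunit of a second enzyme form found in cartilage and bone cells, lay at 431, 302, 340 and 330 CPM in hypoxia and at 314, 295, 330 and 314 CPM in normoxia. Hypoxia sample 1, the deepest library, stood above all the others and the remaining 7 overlapped. The log2 change was -0.15 ± 0.093 (95% confidence interval -0.35 to 0.051, adjusted p = 0.23). Within pairs of the same number it was -0.46 in pair 1 and between -0.069 and -0.037 in pairs 2 to 4. With the replicate block it passed (adjusted p = 0.040), but not with the block over pairs 2 to 4 (adjusted p = 0.44), and without hypoxia sample 1 the change was -0.048 (adjusted p = 0.60).

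P4ha3 (chr7:100285520-100319699, plus strand), the least counted α subunit, ranged from 123 to 161 CPM in hypoxia and from 139 to 158 CPM in normoxia. Its log2 change of 0.057 ± 0.079 did not pass (95% confidence interval -0.12 to 0.23, adjusted p = 0.62), except under the GC and length correction with the block, at 0.18 (adjusted p = 0.0046).

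P4hb (chr11:120560298-120573253, minus strand) is both the β subunit and the abundant protein disulfide isomerase that forms disulfide bonds in many secreted proteins. It was at 1662, 1435, 1486 and 1488 CPM in hypoxia and at 1843, 1664, 1717 and 1646 CPM in normoxia. Only hypoxia sample 1 reached into the range of the normoxia samples. The log2 change was 0.18 ± 0.071 (95% confidence interval 0.024 to 0.33), which did not pass without the block (adjusted p = 0.071) and did with it (adjusted p = 0.0050), normoxia being higher in 4 of 4 pairs. It also passed with DESeq2 (adjusted p = 0.046), limma-voom (0.049), library totals (0.0088), the GC and length correction (0.020) and without hypoxia sample 1 (0.023). It missed with edgeR's quasi-likelihood test (adjusted p = 0.061), RLE factors (0.089), a prior count of 1 (0.068), no filter (0.20) and the 7 other fits without 1 sample (0.11 to 0.22), in all 11 of 19 alternatives.

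The lysyl hydroxylases split. Plod2 (chr9:92542223-92608428, plus strand), the lysyl hydroxylase that acts on the ends of the chains and so favours stable cross-links, was at 347, 288, 258 and 316 CPM in hypoxia and at 487, 425, 430 and 499 CPM in normoxia. Every normoxia sample exceeded every hypoxia sample. The level was 1.53-fold higher at 21% oxygen, a log2 change of 0.61 ± 0.090 (95% confidence interval 0.42 to 0.81, adjusted p = 0.0004), and it ranked 753 of 14369 genes from the largest rise. Its transcript, at 43.0% GC, was the poorest in G and C among the 10 genes, and after the GC and length correction the change was 0.42 and still passed (adjusted p = 0.0028).

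Plod1 (chr4:147909753-147936767, minus strand), which hydroxylates lysines within the helix and is mutated in a form of Ehlers-Danlos syndrome with kyphoscoliosis, went the other way. Its values were 363, 337, 351 and 357 CPM in hypoxia and 254, 249, 272 and 278 CPM in normoxia. The groups lay well apart, and the level fell by 25.3% (log2 change -0.42 ± 0.056, 95% confidence interval -0.54 to -0.30, adjusted p = 0.0003). Both Plod1 and Plod2 kept their direction and passed under all 19 alternatives run.

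Plod3 (chr5:136987019-136996648, plus strand) encodes an enzyme that both hydroxylates lysine and adds sugars to hydroxylysine. Its level was 567, 533, 549 and 526 CPM in hypoxia and 510, 507, 492 and 489 CPM in normoxia. The groups were narrow and did not overlap, yet the difference was small at -0.12 ± 0.053 (95% confidence interval -0.24 to -0.0076) and missed the threshold (adjusted p = 0.092). It passed with the block (adjusted p = 0.037) and with DESeq2 (0.039), not with the block over pairs 2 to 4 (0.079), and the estimate became 0.037 after the GC and length correction (adjusted p = 0.65). Exons of Plod3 share 529 bases with Znhit1 on the opposite strand, which held 2853 reads in all against 61280 for Plod3, and the 346 bases that Plod2 shares with Gm38391 belong to a gene with 171 reads against 44327 for Plod2, so that reads of these overlaps could be exchanged if the counting ignored strand.

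**Figure D2:**
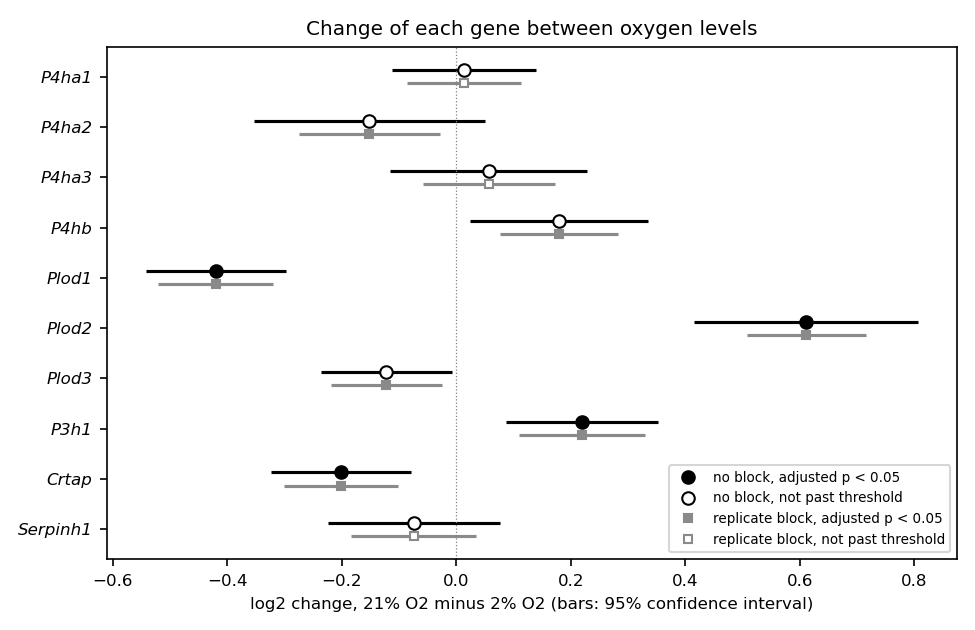
Log2 change of each gene, 21% minus 2% oxygen, with its 95% confidence interval. Circles are the fit without the replicate block and squares the fit with it, and filled symbols passed the threshold of adjusted p 0.05. Plod2 at 0.61 and Plod1 at -0.42 lie farthest from 0, and filled squares beside open circles mark P4ha2, P4hb and Plod3.

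To set the genes of each family side by side, their shares of the family were computed from counts divided by exon length. That length is the union of all exons, 6239 bases for P4ha2 and 4114 for P4ha1. Their longest transcripts have 3060 and 4043 bases, so the size of the shares depends on this choice. Shares by transcript length were not computed. Within the lysyl hydroxylases, Plod2 made up 26.4%, 24.1%, 21.6% and 25.7% of the family in hypoxia and 37.5%, 34.6%, 34.8% and 38.3% in normoxia. Plod1 fell from 22.8 ± 0.65% to 16.6 ± 0.88% and Plod3 from 52.7 ± 1.75% to 47.1 ± 1.87% (mean ± SD, n = 4), with no overlap for any of the 3 genes. Plod2 and Plod1 were thus at near equal shares at 2% oxygen only. Among the α subunits, P4ha1 supplied 49.0% to 51.8% in hypoxia and 50.1% to 53.3% in normoxia. P4ha2 supplied 24.1% to 30.4% and 24.1% to 25.7%, and P4ha3 20.1% to 25.6% and 21.9% to 25.8%, so that all 3 ranges overlapped.

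**Figure D3:**
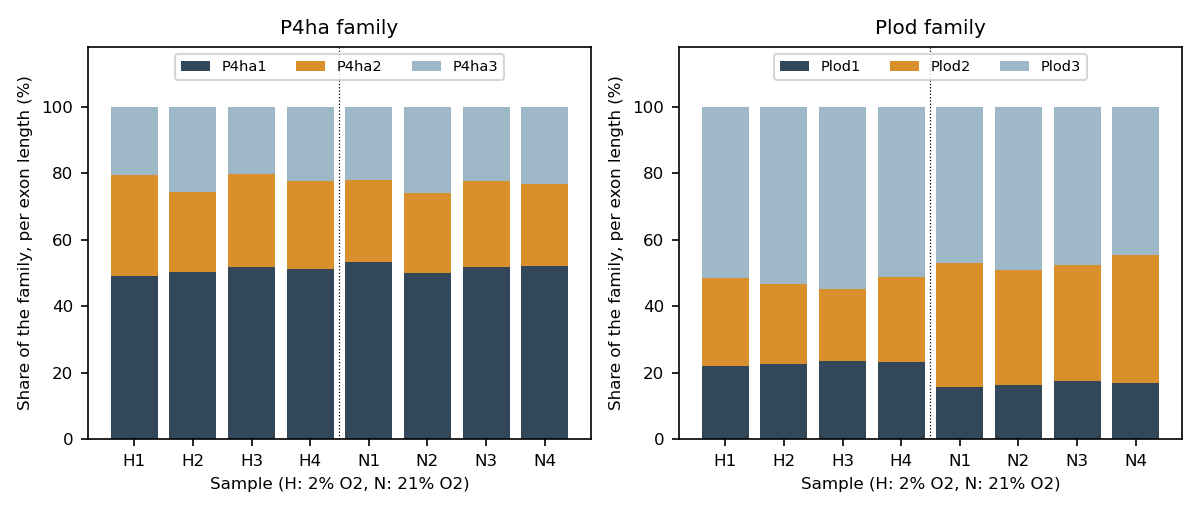
Share of each gene in its family, in percent of counts per exon length, for hypoxia samples H1 to H4 and normoxia samples N1 to N4. The Plod2 segment spans 21.6% to 26.4% in hypoxia and 34.6% to 38.3% in normoxia, while the P4ha segments keep overlapping ranges.

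The prolyl 3-hydroxylase complex joins P3h1, the enzyme, with Crtap, its non-catalytic partner, and with the cyclophilin Ppib. Loss of any of the partners causes brittle bones. P3h1 (chr4:119232915-119248975, plus strand) was at 153, 139, 135 and 129 CPM in hypoxia and at 162, 158, 166 and 160 CPM in normoxia. The normoxia samples were tightly grouped above all hypoxia samples, of which sample 1 came closest. The log2 change was 0.22 ± 0.061 (95% confidence interval 0.088 to 0.35, adjusted p = 0.015), and without normoxia sample 3 it was 0.20 (adjusted p = 0.052).

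Crtap (chr9:114375134-114390675, minus strand) was at 253, 282, 272 and 273 CPM in hypoxia and at 229, 248, 225 and 238 CPM in normoxia. All normoxia samples were below all hypoxia samples, by little in the case of hypoxia sample 1. The log2 change of -0.20 ± 0.056 passed (95% confidence interval -0.32 to -0.079, adjusted p = 0.016). It did not pass without normoxia sample 3 (-0.19, adjusted p = 0.050, just above the threshold) or with library totals (-0.11, adjusted p = 0.15), and after the GC and length correction nothing of it was left (-0.0038, adjusted p = 0.97, or 0.96 with the block). The transcripts of Crtap and P3h1 have like GC contents, 57.0% and 56.4%, against a median of 49.7% over all tested genes. Ppib, the cyclophilin of the complex, fell too, from 96.5 to 122 CPM in hypoxia to 76.3 to 88.9 CPM in normoxia (log2 change -0.33 ± 0.079, adjusted p = 0.0066).

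Serpinh1 (chr7:99345376-99353239, minus strand), the most abundant of the 10 RNAs, was at 2547, 2376, 2551 and 2652 CPM in hypoxia and at 2367, 2354, 2458 and 2431 CPM in normoxia. The ranges overlapped. The log2 change was -0.074 ± 0.069 (95% confidence interval -0.22 to 0.076, adjusted p = 0.44), and its sign turned under library totals (0.014) and under the GC and length correction (0.087), where it did not pass either.

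Levels can be set against each other only per length, here as scaled counts per kilobase of the union of exons (FPKM). This union is 6765 bases for Plod1, 4519 for Plod3 and 1772 for Crtap, against longest transcripts of 4097, 3280 and 1674 bases. The place of Plod1, and that of Crtap ahead of Plod3, are therefore given for this length only, and other lengths were not tried. Serpinh1 led with a mean of 1036 FPKM in hypoxia and 984 FPKM in normoxia, ahead of P4hb at 530 and 600 FPKM. Crtap (152 and 132 FPKM), Plod3 (120 and 111) and P4ha1 (104 and 105) followed in this order in both groups, and no neighbours among these 5 had overlapping ranges within a group. The order of the others differed between the groups. In hypoxia, P4ha2 (56.2 FPKM), Plod2 (56.0), Plod1 (52.0), P4ha3 (45.5) and P3h1 (36.1) each overlapped the next. In normoxia, Plod2 at 78.9 to 92.5 FPKM was clear of P4ha2 at 47.2 to 52.9 FPKM, and P4ha3 (47.1) and P3h1 (42.0) came before Plod1, which was last at 36.8 to 41.1 FPKM and just overlapped P3h1. P4hb therefore stood several times above any α subunit in every sample, and Crtap above its partner P3h1.

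Ratios of counts within a library do not depend on how libraries are scaled. A set of 7 ratios was tested by exact permutation (two-sided, all 70 ways to divide the 8 samples), for which 0.0286 is the smallest p, with adjustment over the 7. The ratio of Plod2 to Plod1 was 0.957, 0.853, 0.735 and 0.885 in hypoxia samples 1 to 4 and 1.92, 1.71, 1.58 and 1.79 in normoxia samples 1 to 4. The groups did not overlap. These are ratios of reads, whose size depends on the lengths of both genes and whose difference between groups does not. Per exon length, Plod2 lay above Plod1 in 3 of 4 hypoxia samples and in 4 of 4 normoxia samples. The hypoxia count depends on the length used, here exon unions of 5392 bases for Plod2 and 6765 for Plod1. Their longest transcripts have 3663 and 4097 bases. The difference was 1.03 in log2 units, or 2.04-fold (p = 0.0286, adjusted p = 0.0333, exact permutation test). Each gene had already separated the groups, in opposite directions. The ratio therefore had to reach the smallest p, which adds nothing to the tests of the single genes. Normoxia was higher in 4 of 4 pairs, by at least 1.00. The transcripts of Plod2 and Plod1 differ in GC content, at 43.0% and 52.7%, as do those of P4ha1 and P4hb, at 45.7% and 53.8%. The ratios were not recomputed with the GC and length correction, under which Plod2 changed by 0.42 and Plod1 by -0.38.

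The ratio of Crtap to P3h1 was 1.65, 2.02, 2.02 and 2.12 in hypoxia and 1.41, 1.57, 1.35 and 1.49 in normoxia, a log2 difference of -0.42 (exact permutation p = 0.0286, adjusted p = 0.0333) seen in 4 of 4 pairs. The groups did not overlap, although hypoxia sample 1 lay nearer to normoxia sample 2 than to the other hypoxia samples. Crtap was lower and P3h1 higher in every normoxia sample than in any hypoxia sample, so this ratio too had to reach the smallest p. This was a comparison of genes with like GC contents, and its adjusted p was 0.0667 when any 1 of the normoxia samples was left out. P4ha1 relative to P4hb declined from 0.276, 0.290, 0.279 and 0.283 to 0.241, 0.242, 0.256 and 0.266, by 0.17 on the log2 scale (p = 0.0286, adjusted p = 0.0333, exact permutation test, 4 of 4 pairs), with an adjusted p of 0.0571 to 0.0667 when any 1 of the hypoxia samples was left out. P4ha1 relative to P4ha2 was 1.06, 1.38, 1.22 and 1.27 in hypoxia and 1.41, 1.37, 1.33 and 1.39 in normoxia. These ranges overlapped, and the log2 difference of 0.17 did not pass (p = 0.0857, adjusted p = 0.0857, exact permutation test), though it did at 0.22 without hypoxia sample 2 (adjusted p = 0.0333).

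Relative to Col1a1, the most counted of the fibrillar collagens listed, all 3 genes compared were higher at 21% oxygen. Reads of P4ha1 per read of Col1a1 were 1.68-fold higher (log2 difference 0.75), those of Serpinh1 1.58-fold higher (0.66) and those of Plod2 2.54-fold higher (1.35). Each difference had an exact permutation p of 0.0286 and an adjusted p of 0.0333, with no overlap between groups and 4 of 4 pairs in the same direction. These 3 ratios share their denominator. For Plod2 the separation was fixed beforehand, since Plod2 was higher and Col1a1 lower in every normoxia sample than in any hypoxia sample. Col1a1 itself fell by 0.74 on the log2 scale (SE 0.16, adjusted p = 0.0038), while neither P4ha1 nor Serpinh1 passed on its own. The fall of Col1a1 enters each of these ratios, and no other collagen was used as a denominator. Of the 11 fibrillar collagens 9 had estimates below 0, and those above 0 were Col3a1 (0.22, adjusted p = 0.14) and Col5a2 (0.43, adjusted p = 0.0063).

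**Figure D4:**
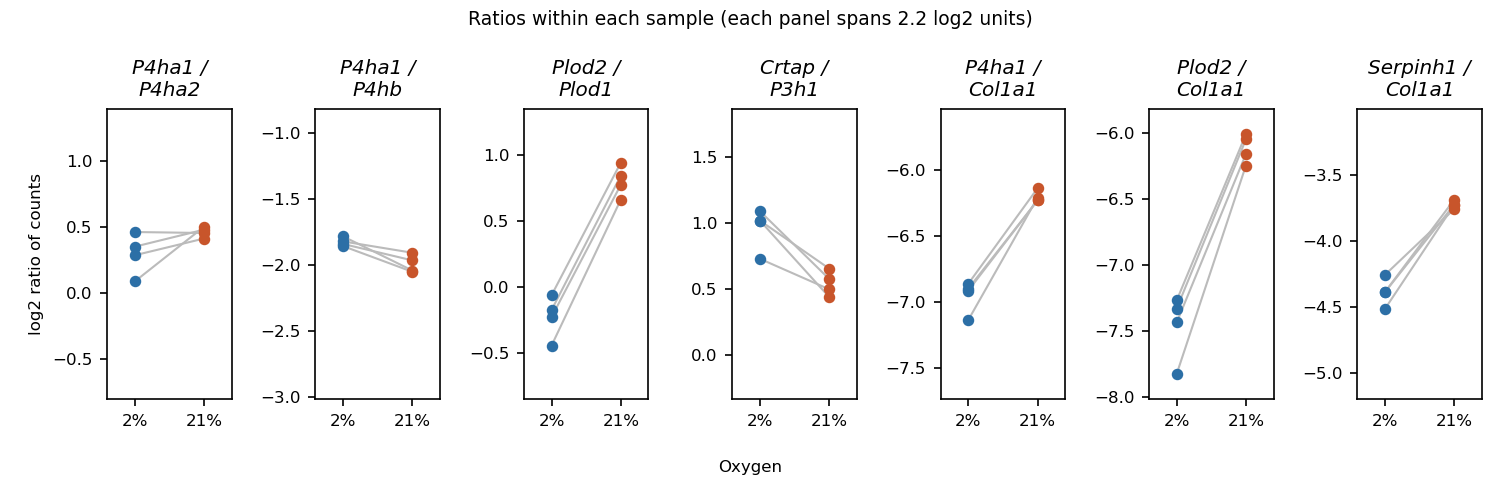
Log2 ratio of counts of the named genes within each sample, at 2% and 21% oxygen, on panels that all span the same height in log2 units. Lines join samples with the same replicate number. The Plod2 to Plod1 ratio rose by 1.03 on average and in each pair, and the P4ha1 to P4ha2 panel is the one in which the groups overlap.

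The genes around these 10 were taken from lists, described by counts and medians beside the median log2 change of 0.0049 over all tested genes. With library totals the median of all genes was itself 0.089, with 11.0% called lower and 25.1% called higher. After the GC and length correction it was 0.0027. Among the other enzymes and chaperones that modify procollagen, 11 of 12 were tested, 3 fell and 1 rose, with a median of -0.0049, or 2 and 4 with a median of 0.083 when library totals were used. Those that fell were P3h2, another prolyl 3-hydroxylase (-0.51, adjusted p = 0.026), Creb3l1, a transcription factor that drives collagen genes in osteoblasts (-0.38, adjusted p = 0.0003), and Ppib. The one that rose was P3h3, a partner of Plod1 in lysine hydroxylation (0.24, adjusted p = 0.022). With the block the counts were 4 and 3, and 2 genes passed in all without hypoxia sample 4, normoxia sample 3 or normoxia sample 4.

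The fibrillar collagens, the substrates, numbered 11 and had a median of -0.25, which was -0.16 with library totals and -0.11 after the GC and length correction (2 lower and 1 higher). Col1a1, Col11a2 (-1.01, adjusted p = 0.0009) and the cartilage collagen Col2a1 (-0.33, adjusted p = 0.023) fell, and Col5a2 rose (0.43, adjusted p = 0.0063), whereas with the block 6 fell and 2 rose and DESeq2 called 7 in all. Procollagen export and propeptide removal had 16 of 17 genes tested and a median of 0.18 (0.11 after the GC and length correction), with 1 lower and 5 higher, or 2 and 8 with the block and 10 in all with library totals. Mia2, which helps load bulky cargo at exit sites (0.73, adjusted p = 0.0002), the propeptide protease Tll1 (0.71, adjusted p = 0.016) and the coat protein Sec13 (0.48, adjusted p = 0.0025) rose, and Pcolce, an enhancer of the procollagen C-proteinase, fell (-0.27, adjusted p = 0.0055).

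General folding factors of the endoplasmic reticulum, 19 genes with a median of 0.17 (0.26 with library totals), had 9 higher and 1 lower. The chaperones Hspa5 (0.68, adjusted p = 3.8e-05) and Hsp90b1 (0.62, adjusted p = 0.0004) and the co-chaperone Dnajc3 (0.55, adjusted p = 0.0005) rose, and Xbp1, a regulator of the unfolded protein response, fell (-0.16, adjusted p = 0.038). Other HIF targets were 16 genes with a median of -0.39, of which 10 fell. All 16 estimates were below 0, or 12 of 16 with library totals. The list includes the collagen cross-linking oxidases Lox (-0.14, adjusted p = 0.38) and Loxl2 (-0.081, adjusted p = 0.59), which were not called. Car9 (-2.34, adjusted p = 9.8e-06), Egln3 (-0.91, adjusted p = 0.0002) and Ankrd37 (-0.80, adjusted p = 0.027) fell most. At least 1 HIF core was found in 13 of the 15 windows of the HIF targets, which belong to 12 genes, and in 9 of the 10 windows of the collagen-modifying genes. P4ha1 and P4ha2 did not pass in this comparison and Plod2 was higher at 21% oxygen.

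Of 15 genes that handle the cofactors ascorbate, iron and 2-oxoglutarate, 14 were tested, 2 fell and 5 rose, with a median of 0.12, or 0.21 with library totals and 0.048 after the GC and length correction. The transferrin receptor Tfrc rose most (1.81, adjusted p = 0.0002), with 8.94 to 25.2 CPM in hypoxia and 46.3 to 55.8 CPM in normoxia, followed by the metal transporters Slc39a14 (0.34, adjusted p = 0.016) and Slc11a2 (0.32, adjusted p = 0.0037). The glucose and dehydroascorbate transporter Slc2a1 (-0.40, adjusted p = 0.0018) and the ferritin chain Ftl1 (-0.24, adjusted p = 0.045) fell. The count of 7 became 4 without hypoxia sample 3, 3 without normoxia sample 1 and 4 after the GC and length correction. Ero1a stands in both the folding and the HIF list, and Slc2a1 in both the HIF and the cofactor list.

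**Figure D5:**
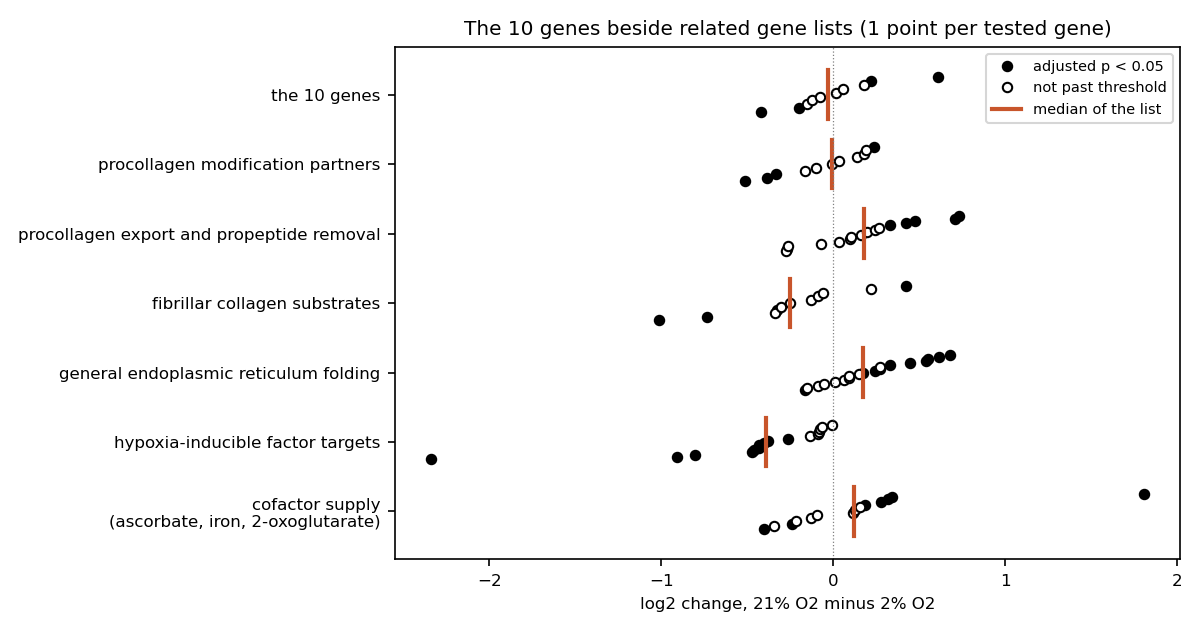
Log2 change, 21% minus 2% oxygen, of every tested gene in the 10-gene group and in 6 related lists, 1 point per gene, with filled points past the threshold of adjusted p 0.05 and a bar at the median of each list. The 10 genes lie on both sides of 0 with a median of -0.030 (0.058 with library totals and 0.062 after the GC and length correction), whereas the HIF targets have their median at -0.39. The median of all tested genes was 0.0049, or 0.089 with library totals and 0.0027 after that correction.

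Profiles over the 8 samples were also compared with those of 9394 other genes of at least moderate level, by the root mean square difference of mean-centred log2 CPM. Nearest to P4ha1 were Rap1gds1 (0.014), Mta3 (0.023) and the disulfide isomerase Pdia5 (0.023). P4ha2 lay nearest to Tmcc1 (0.046), the glycolytic enzyme Pgam1 (0.051) and Prmt7 (0.059), and Plod2 to Scfd1 (0.071), Ccdc134 (0.072) and Frk (0.077). For Serpinh1 the nearest were Prr13 (0.031), Snu13 (0.032) and the proteasome subunit Psmb7 (0.032). These are distances in log2 units over the same samples and carry no test.

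Markers of other cells were read beside these results. Blood markers summed to 513 to 1023 CPM in hypoxia and 617 to 1159 CPM in normoxia, and 1 of 9, Lyz2, rose (0.56, adjusted p = 0.022), or 1 rose and 5 fell with the block. Lyz2 alone made up 261 to 436 CPM and 400 to 691 CPM of these sums, and 7 of the 9 estimates were below 0, with a median of -0.28. Ptprc, the gene of the sorting marker CD45, was read in every sample, at 8.28 to 16.9 CPM in hypoxia and 10.1 to 19.0 CPM in normoxia. Of the 6 erythroid markers, 5 were at 0 in all samples and Alas2 reached 1 read, where 3 reads would be 0.119 to 0.233 CPM, an allowance for counting error only. The 5 endothelial markers summed to at most 2.65 CPM. Among osteoblast markers, 6 of 8 were tested, Sp7, Alpl and Runx2 fell and Spp1 rose, at summed levels of 588 to 739 CPM in hypoxia and 661 to 853 CPM in normoxia. Spp1 made up 346 to 452 CPM and 502 to 649 CPM of these sums, and 5 of the 6 estimates were below 0, with a median of -0.46. Cebpa fell as 1 of 5 tested of 6 adipocyte markers, whose sum was 88.7 to 152 CPM in hypoxia and 87.8 to 152 CPM in normoxia. Of the 5 chondrocyte markers 4 were tested, Sox9 and Col2a1 fell, and the sums were 4905 to 6648 CPM and 3994 to 4773 CPM. Comp, which was not called without the block, made up 3785 to 5742 CPM and 3176 to 4063 CPM of them. With the block, 4 osteoblast markers fell and 1 rose, 1 adipocyte marker fell and 1 rose, and 3 chondrocyte markers fell, Comp among them. What part these shifts have in the values of the 10 genes was not tested.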

How the data were processed

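Per the labels and the study's methods, total RNA libraries were sequenced as single-end reads, and the authors processed them with zUMIs 2.2.1, STAR 2.6.1a, samtools 1.9 and featureCounts from Rsubread 1.32.4 on mm10 (GRCm38) with Ensembl annotation 91. The deposited values are raw counts per gene for 53465 Ensembl identifiers in 8 samples, with no normalization by the authors, and 0 columns of other samples. Use of strand, introns and multiply mapped reads is not stated, and reads of near-identical copies could be divided. Symbols and positions came from GENCODE M21 (GRCm38), which matched 53360 identifiers. The 10 genes and all lists were chosen with earlier results of these data known, so they are not independent evidence.

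Low counts were removed with edgeR 4.0.16 (filterByExpr, minimum count 5), and the remaining genes were scaled by TMM and tested as log2 CPM with a prior count of 3 by limma-trend in limma 3.58.1 (R 4.3.3), with Benjamini-Hochberg adjustment over 14369 genes and a threshold of 0.05. The filter and test follow the study, whereas TMM was chosen here. Each log2 change is the normoxia mean minus the hypoxia mean of these moderated values. Ratios used counts with an offset of 0.5, and FPKM used the union of exons. Named genes were all 10 members, up to 3 genes called per direction in each list, the ratio denominator and the 3 nearest profiles. The fit was tested on simulated data.

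In the study the sorted cells were split between both oxygen levels. Deviations from group means correlated at 0.47, 0.28, 0.25 and 0.17 in samples of equal number, all above 0.1. The numbers were therefore taken as pairs, and a fit with the replicate block was run beside the main one. Correlations between samples of unequal number were not set beside these, so the pairing remains an assumption. Alternatives were edgeR's quasi-likelihood test, DESeq2 1.42.0, limma-voom, RLE factors, library totals, no filter, a prior count of 1, a GC and length correction by a natural spline with 5 degrees of freedom per sample, and leaving out each sample. The block over pairs 2 to 4 was added after seeing the data. Upstream windows came from RefSeq (GRCm38.p6).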

Additional observations from a re-analysis of the deposited data

Results flagged for a closer look

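In each group of 4 values, the distance of the highest and of the lowest sample to the next one was divided by the range of the group. Of 36 sets searched in this way, 3 stood out, where chance alone gives about 1.8. The total count of hypoxia sample 1 was 25132141, with a gap of 0.976 of the range. P4ha1 was highest in hypoxia sample 1, at 8.84 log2 CPM (gap 0.854 of the range), and lowest in normoxia sample 2, at 8.66 log2 CPM (gap 0.862 of the range). The log2 change of P4ha1 lay between -0.014 and 0.048 when any 1 sample was left out and did not pass.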

How the results depend on the processing

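Of the 190 recomputed changes of the 10 genes under 19 alternatives each, 172 kept their direction, where called, and their side of the threshold. The block called 7 of the 10 genes in all and 4 as lower. Only 1 was called lower with library totals (11.0% of all genes) and only 1 after the GC and length correction (14.4%), and 4 were called higher with that correction and the block (21.7%), where P4ha1 reversed to -0.12. Leaving out 1 sample gave 2 to 5 genes in all (26.3% to 37.1% of all genes), 1 to 2 lower and 1 to 3 higher. The ratios held their direction throughout, at -0.19 to -0.15 for P4ha1 to P4hb, -0.50 to -0.38 for Crtap to P3h1 and 0.096 to 0.22 for P4ha1 to P4ha2 when 1 sample was left out. With 3 samples against 4 the smallest exact p is 0.0286, so adjusted values depend on how many of the 7 ratios reach it. An exact test over 4 pairs cannot reach the threshold and was not run for the ratios. Beside the calls of P4ha2, P4hb and Plod3 and the list counts given above, the block changed no other call among the 10 genes. The causes of these changes were not tested.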
